A study of Mus musculus with 14 samples.

Results

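Transcripts of 39 lysosomal genes were followed in mouse bone marrow-derived macrophages across 8 combinations of stimulus and time. The genes are 10 cathepsins, 8 glycan-degrading enzymes, 5 lipid hydrolases or activators, 2 acid phosphatases, 7 membrane proteins including 1 channel, 5 subunits of the proton pump and 2 transcription factors. The group of lipid hydrolases and activators counts Grn, a growth factor precursor, among its 5. The 39 were taken by gene name, and the rule uses no measured value. The list was chosen with earlier results of these data known. All 39 were found among the 39721 entries of the deposited table. Of these, 35 have an entry of their own. The other 4 stand only in an entry that names a second gene, so their values can hold reads of that gene: Ctsd with Ifitm10, Glb1 with Tmppe, Naglu with Hsd17b1 and Mcoln1 with Pnpla6. All 39 were among the 11977 entries that reached at least 1 FPKM (fragments scaled to transcript length and to library size) in at least 2 libraries and were tested.

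Lysosomes are acidic organelles in which proteases, glycosidases, lipases and phosphatases break down material delivered by endocytosis, phagocytosis and autophagy. The V-ATPase pumps protons into the lumen, and heavily glycosylated membrane proteins such as LAMP1 and LAMP2 line it. TFEB and TFE3 are related transcription factors that move to the nucleus in starved or damaged cells and bind E-box elements in the promoters of many lysosomal genes. In macrophages, lysosomes digest engulfed microbes, and cathepsins cut proteins for presentation on MHC class II.

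The E-box elements bound by TFEB and TFE3 contain the letters TCACGTG, so the promoters of the list were searched for them on both strands. The sequences are RefSeq promoter windows of GRCm38.p6, from 250 bases before each gene's start to 50 after it. Of the 39 members, 33 had such a window, and 10 of those 33 (30.3%) held TCACGTG. The letters were present in 3.77% of all 32851 windows and in 4.29% of the 27025 genes with a window. The shorter E-box CACGTG, which lies within TCACGTG, was held by 12 of the 33 members (36.4%) and by 7.15% of all windows. The 10 members were Ctsa, Ctsd, Gla, Glb1, Naglu, Sgsh, Lamp1, Mcoln1, Atp6v1a and Atp6v0d1. Shown are the stretches around the first match in 5 of them, 1 cathepsin, 2 glycan-degrading enzymes and 2 membrane proteins, because there the match lies before both the RefSeq start and the start of the GENCODE gene. Each stretch ends before both starts. Capitals mark TCACGTG on either strand, and each stretch reads 5′ to 3′ on the strand of its gene: chr8:13159049-13159155 (plus strand) for Lamp1, chr8:3500397-3500456 (plus strand) for Mcoln1, chrX:134601177-134601255 (minus strand) for Gla, chr9:114400979-114401075 (plus strand) for Glb1 and chr7:142388039-142388077 (minus strand) for Ctsd.
Lamp1: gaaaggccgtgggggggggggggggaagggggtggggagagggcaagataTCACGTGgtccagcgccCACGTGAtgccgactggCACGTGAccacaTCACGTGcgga
Mcoln1: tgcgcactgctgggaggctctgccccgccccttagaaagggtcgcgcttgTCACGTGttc
Gla: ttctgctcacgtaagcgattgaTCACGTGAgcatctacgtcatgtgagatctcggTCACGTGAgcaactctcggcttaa
Glb1: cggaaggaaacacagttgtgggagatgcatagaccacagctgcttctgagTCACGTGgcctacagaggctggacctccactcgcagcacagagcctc
Ctsd: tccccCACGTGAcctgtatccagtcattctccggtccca
The Lamp1 stretch holds 4 separate runs of capitals, that of Gla holds 2, and those of Mcoln1, Glb1 and Ctsd hold 1 each. A match is a description of the letters and not evidence of a bound site.

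The cells came from male C57Bl6/J mice aged 6 to 12 weeks and were grown in medium with 30% L929-conditioned medium. They received Poly I:C, a synthetic double-stranded RNA sensed by TLR3, at 100 ng/mL, or PBS, for 24 h. After a wash they received LPS, the TLR4 ligand lipopolysaccharide from bacterial outer membranes, at a dose the labels do not state, or PBS, for 2 h or 6 h. At each time the groups were thus Poly I:C then LPS, Poly I:C then PBS, PBS then LPS and PBS then PBS. Cells given Poly I:C first are called primed here, and cells given PBS first unprimed. Each group had 2 libraries except PBS then PBS, which had 1 library at each time, so that the lone library is assumed to vary like the other groups. Nothing in the labels ties replicates to different animals or culture dishes. The p-values therefore speak only to the variation among these libraries, which could be technical.

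Across the 14 libraries the absolute depth is unknown, and the value of 1 fragment spanned a 3.07-fold range. Replicates correlated across the tested entries at r = 0.974 to 0.988. No member lay over 2-fold apart between replicates, and the median difference of members was 0.262 log2 units in the pair given PBS then LPS for 2 h, against 0.0421 to 0.174 in the other pairs. All 7 macrophage markers reached 1 FPKM in every library. Their sum was 4146 to 6567 FPKM in libraries of primed cells and 12440 to 18920 FPKM in libraries of unprimed cells. The 4 T and NK cell markers were at 0 in all libraries, the 3 B cell markers summed to at most 0.788 FPKM, and the 3 dendritic cell markers summed to 2.77 to 10.2 FPKM in stimulated libraries against 0.0900 and 0.548 FPKM in the PBS-then-PBS libraries. The 5 stromal markers summed at 6 h to 21.9 to 51.9 FPKM in primed and 18.1 to 59.3 FPKM in unprimed libraries, and at 2 h to 40.2 to 105 FPKM in primed and 14.4 to 19.5 FPKM in unprimed libraries. The macrophage sum was thus lower in every primed library, the dendritic sum was higher in every stimulated library, and the stromal ranges overlapped at 6 h and not at 2 h. With priming before LPS at 2 h, 3 of the 5 stromal markers were higher and 0 lower, against 32.6% and 28.5% of all tested entries. Of the 7 macrophage markers, 2 were higher and 5 lower with priming before LPS at 2 h, and 0 and 6 at 6 h. With Poly I:C alone, 1 macrophage marker was higher and 5 lower at each time. There 18.4% of entries were higher and 16.1% lower at 6 h, and 24.9% and 22.4% at 2 h. The part of these markers in the results was not tested. Neutrophil markers summed to 7.20 to 8.33 FPKM after Poly I:C then LPS for 6 h and to at most 2.15 FPKM elsewhere. As a check of the stimuli, 4 interferon-stimulated genes summed to 799 to 11660 FPKM in stimulated groups against 33.6 and 64.9 FPKM in the PBS-then-PBS libraries. In such bulk samples, fewer cells of a type and less RNA per cell cannot be told apart.

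Levels of the members per kilobase spanned 3 orders of magnitude. Averaged over the libraries, the merged entry of the aspartic protease Ctsd stood highest at 3972 FPKM, followed by the sphingolipid activator precursor Psap at 3111, the cysteine proteases Ctss at 3021 and Ctsb at 2946, and the growth factor precursor Grn at 2276. The lowest were Ctsf at 3.54 FPKM and Ctsk at 5.00. Of the 39 members, 25 had their lowest group mean in cells given Poly I:C then LPS for 6 h, and 13 had their highest in cells given the same stimuli for 2 h. These counts of group means were not taken over all entries or with rescaled libraries. The 2 libraries given Poly I:C then LPS for 2 h had the largest FPKM sums of all, 875390 and 964260. For 20 members (51.3%) both libraries given Poly I:C then LPS for 6 h lay below all the other libraries, against 9.94% of all tested entries. When libraries were rescaled to one FPKM sum, this held for 12 members (30.8%) and 6.77% of entries. Atp6v1b2 was the only member with both of these libraries above all others, which held for 5.79% of entries.

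**Figure D1:**
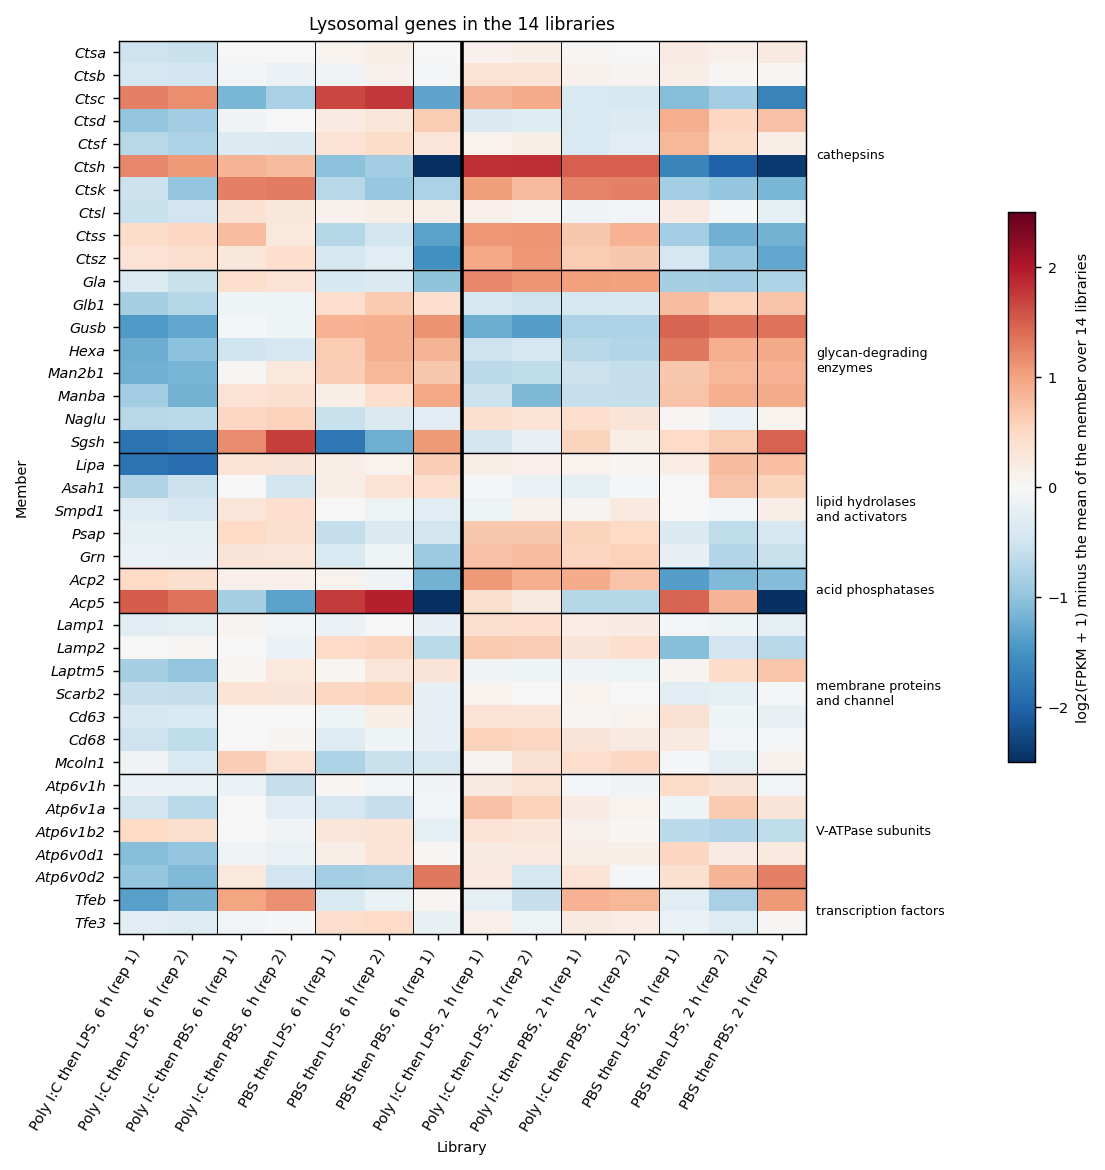
Level of the 39 members (rows, grouped by role) in each of the 14 libraries (columns, 6 h left of 2 h) as log2(FPKM + 1) minus the member's mean, with colours saturating at the ends of the scale. The columns of Poly I:C then LPS at 6 h are blue for most members, and 25 members have their lowest group mean there, a count not taken over all entries.

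LPS given to primed cells lowered a large share of the list at 6 h. Of the 39 members, 22 were lower and 3 higher in cells given Poly I:C then LPS than in cells given Poly I:C then PBS (limma on log2(FPKM + 1), Benjamini-Hochberg adjusted p under 0.05 over all entries). Of all tested entries, 43.9% passed in either direction, 22.2% lower and 21.7% higher. The median log2 change was -0.64 over the members and -0.03 over all entries. The libraries' FPKM summed to 462720 to 964260, so each count was also taken with libraries rescaled to one sum. Here the rescaled counts were 2 higher and 31 lower, with a median of -0.33 over all entries and a members' median of -0.68 relative to it. Of the 11977 entries, 1724 were higher and 4818 lower after that rescaling. The members that fell included 8 of 8 glycan-degrading enzymes, with Sgsh changed by -3.25 and Gusb by -1.28. Without the first Poly I:C-then-LPS library of that time Hexa no longer passed (limma adjusted p = 0.0526), and without the second Cd68 no longer passed (limma adjusted p = 0.0563). The call of Atp6v0d2 was lost without either of these (limma adjusted p = 0.0728 and 0.113) or without the first Poly I:C-then-PBS library (limma adjusted p = 0.187). The members that fell also included Lipa, which cleaves cholesteryl esters, at -2.21, the protease Ctsk at -2.04 and the transcription factor Tfeb at -2.34. The 3 members that rose were Acp5 (2.52), Ctsc (2.19) and Atp6v1b2 (0.49). At 6 h the summed macrophage markers were at 4335 to 4484 FPKM in the pair given LPS after Poly I:C, against 4177 to 4392 FPKM in the pair given PBS after it. Of the 7 markers, 2 were higher and 3 lower there with LPS, with a median of -0.45, and their part in the result was not tested. At 2 h the same comparison called 2 higher, Ctsc and Acp5, and 2 lower, Tfeb and Gusb, against 14% of entries higher and 8.72% lower (22.8% in either direction). With libraries rescaled to one sum, 1 was higher and 25 lower at 2 h, with the members' median at -0.03 relative to a median of -0.41 over all entries. Of the 11977 entries, 785 were then higher and 5148 lower at 2 h. Without rescaling, the median change at 2 h was 0.14 over the members and 0.04 over all entries.

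In unprimed cells the counts of members that LPS raised and lowered depended on the scale and on the control library. At 6 h, 12 of 39 were higher and 2 lower after PBS then LPS than in the PBS-then-PBS library, against 22.9% and 20.6% of entries (43.4% in either direction). The medians were 0.09 over the members and 0.02 over all entries. Rescaled to one sum, 5 were higher and 23 lower, with the members' median at -0.01 relative to a median of -0.48 over all entries. After that rescaling 1637 of the 11977 entries were higher and 5417 lower. With the PBS-then-PBS libraries of both times as 1 control group, 11 members were higher and 10 lower, and of the 11977 entries 3020 were higher and 2835 lower. Against the single library of that time, those that rose were Acp5, Ctsc, Ctsh, Acp2, Lamp2, Ctsz, Scarb2, Ctss, Grn, Tfe3, Gla and Atp6v1b2, by 0.57 to 4.84. Without the second PBS-then-LPS library at 6 h, Ctss (limma adjusted p = 0.133) and Grn (limma adjusted p = 0.153) no longer passed. The 2 that fell were Sgsh and Atp6v0d2. At 2 h only 3 rose (Acp5, Ctsc and Ctsh) and 1 fell (Tfeb), against 9.47% and 6.39% of entries (15.9% in either direction). Without the second PBS-then-LPS library at 2 h these counts were 7 and 4, and without the first Ctsh no longer passed (limma adjusted p = 0.0608). Rescaled to one sum, 1 was higher and 15 lower at 2 h, with the members' median at -0.18 relative to a median of -0.31 over all entries. Of the 11977 entries, 711 were then higher and 2706 lower at 2 h. Without rescaling, the median change at 2 h was -0.05 over the members and 0.04 over all entries.

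The difference between the LPS effects in primed and unprimed cells was tested as an interaction. At 6 h it was negative for 22 of 39 members and positive for 0, against 16.7% of entries negative and 12.7% positive (29.4% in either direction). By limma at an unadjusted p under 0.05, 28 were negative and 1 positive. Without the second Poly I:C-then-LPS library at 6 h, Ctsc (limma adjusted p = 0.0527) and Laptm5 (limma adjusted p = 0.0571) no longer passed. Laptm5 was also lost without the second PBS-then-LPS library (limma adjusted p = 0.0552) or without the second Poly I:C-then-PBS library of that time (limma adjusted p = 0.05). Without the first Poly I:C-then-PBS library 1 member was positive. The median interaction was -0.81 over the members and -0.07 over all entries. Rescaled to one sum, 16 members were negative and 1 positive, with the members' median at -0.67 relative to a median of 0.13 over all entries. Of the 11977 entries, 1480 were then negative and 2125 positive. The most negative values without rescaling were those of Acp5 (-2.31 ± 0.33), Ctsk (-2.02 ± 0.28), Tfeb (-2.01 ± 0.30) and Lipa (-1.72 ± 0.26). For 18 members LPS at 6 h lowered the level in primed cells and did not pass the test in unprimed cells. For 7 (Ctsh, Ctss, Ctsz, Grn, Acp2, Lamp2 and Tfe3) it raised the level in unprimed cells and did not pass in primed cells. Passing in primed cells and not in unprimed cells, or the reverse, is not by itself a difference. The test in unprimed cells has a single control library. Not all of the 18 passed the interaction test, and entries with these patterns were not counted over the whole table. Gla, which removes terminal galactose from glycolipids, and Scarb2, the receptor that carries glucocerebrosidase to lysosomes, rose in unprimed and fell in primed cells. Their interactions were -1.50 ± 0.17 (limma adjusted p = 0.000119) and -1.70 ± 0.15 (limma adjusted p = 2.49e-05). At 2 h the interaction called Acp5 alone, at -2.98 ± 0.33 (limma adjusted p = 0.000781), against 1.77% of entries negative and 2.52% positive (4.29% in either direction). At an unadjusted p under 0.05, limma gave 2 negative and 1 positive member at 2 h. Without the second PBS-then-LPS library at 2 h, 2 were negative and 4 positive.

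**Figure D2:**
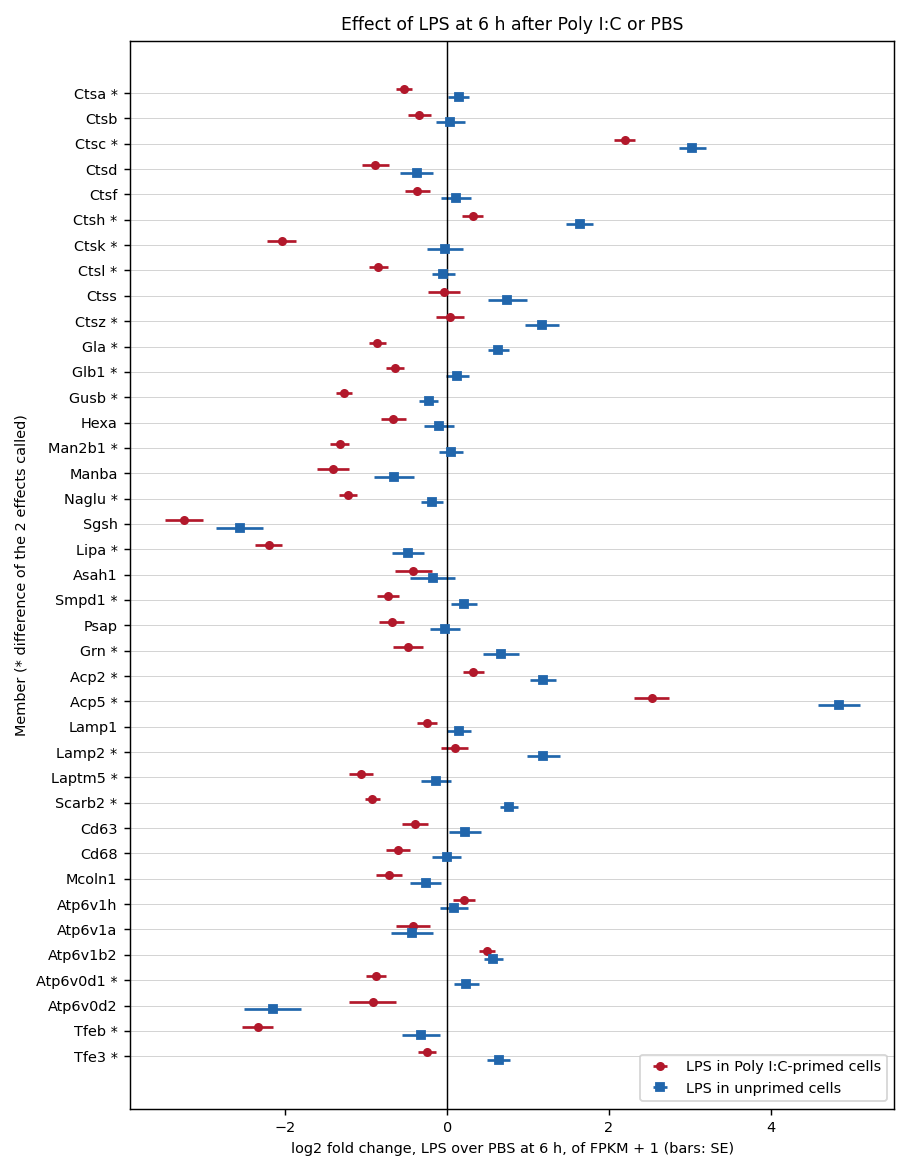
Log2 fold change of FPKM + 1 with LPS over PBS at 6 h for each member, in Poly I:C-primed cells (red circles, 2 libraries against 2) and in unprimed cells (blue squares, 2 libraries against 1), with standard errors. Asterisks mark the 22 members whose 2 effects differ at an adjusted p under 0.05, all with the lower value in primed cells.

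Cells given Poly I:C then LPS were also set directly against cells given PBS then LPS. At 6 h, 5 members were higher and 19 lower, against 23.7% and 25.9% of entries (49.6% in either direction), and the medians were -0.41 over the members and 0.00 over all entries. The count of 5 was 3 without the first Poly I:C-then-LPS library or without the second PBS-then-LPS library at 6 h. At 2 h, 15 were higher and 9 lower, against 32.6% and 28.5% of entries (61.1% in either direction), with medians of 0.21 and 0.05, so that the members' share in either direction at 2 h was near that of all entries. With libraries rescaled to one sum the counts were 7 higher and 16 lower at 6 h, and 11 higher and 20 lower at 2 h. The medians over all entries were then 0.13 at 6 h and -0.36 at 2 h. Of the 11977 entries, 3523 were higher and 2445 lower at 6 h, and 2362 higher and 5407 lower at 2 h. Lower at both times, without rescaling, were 7: the protease Ctsd, the cysteine protease Ctsf and the glycan-degrading enzymes Glb1, Gusb, Hexa, Man2b1 and Manba. Higher at both were 4: the proteases Ctsh, Ctss and Ctsz and the phosphatase Acp2. Ctsc, Lamp2 and Scarb2 were lower at 6 h and higher at 2 h, but for Scarb2 the 2 h value turned to -0.23 when libraries were rescaled to one sum. The 6 h call of Lamp2 was lost without any 1 of the 4 libraries compared (limma adjusted p up to 0.121), and those of Ctsc, Acp2, Ctsb and Asah1 were lost without the second PBS-then-LPS library (limma adjusted p = 0.0654 for Ctsc, 0.114 for Acp2, 0.129 for Ctsb and 0.0538 for Asah1). Without the first Poly I:C-then-LPS library of that time the 6 h calls of Acp2, Asah1 and Ctsb were lost as well (limma adjusted p = 0.0998 for Acp2, 0.0587 for Asah1 and 0.0804 for Ctsb), and without the second those of Ctsc and Ctsb (limma adjusted p = 0.0705 for Ctsc and 0.106 for Ctsb). The 2 h call of Ctsf was lost without the first PBS-then-LPS library of that time (limma adjusted p = 0.0778), and those of Ctsf and Scarb2 without the first Poly I:C-then-LPS library (limma adjusted p = 0.0595 for Ctsf and 0.105 for Scarb2). A further 9 were lower at 6 h and did not pass at 2 h (Ctsa, Ctsb, Ctsl, Lipa, Asah1, Laptm5, Atp6v0d1, Tfeb and Tfe3).

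The priming effect itself differed between the times. The effect at 6 h minus that at 2 h was negative for 25 of 39 members and positive for 1, Gusb, against 25.3% and 19.1% of entries (44.4% in either direction). The medians were -0.68 over the members and -0.06 over all entries. Rescaled to one sum, 8 members were positive and 9 negative, with a median of 0.50 over all entries and a members' median of -0.50 relative to it. Of the 11977 entries, 5012 were then positive and 1541 negative. Without rescaling the most negative were Ctsc (-2.36 ± 0.19), Gla (-2.08 ± 0.15), Lamp2 (-1.92 ± 0.24) and Ctsk (-1.77 ± 0.25). Gusb was at 0.48 ± 0.14 (limma adjusted p = 0.0181). Its call was lost without the first PBS-then-LPS library at 6 h (limma adjusted p = 0.0508) or without the second Poly I:C-then-LPS library of either time (limma adjusted p = 0.0769 and 0.0787), and without the second PBS-then-LPS library at 2 h there were 2 positive members.

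**Figure D3:**
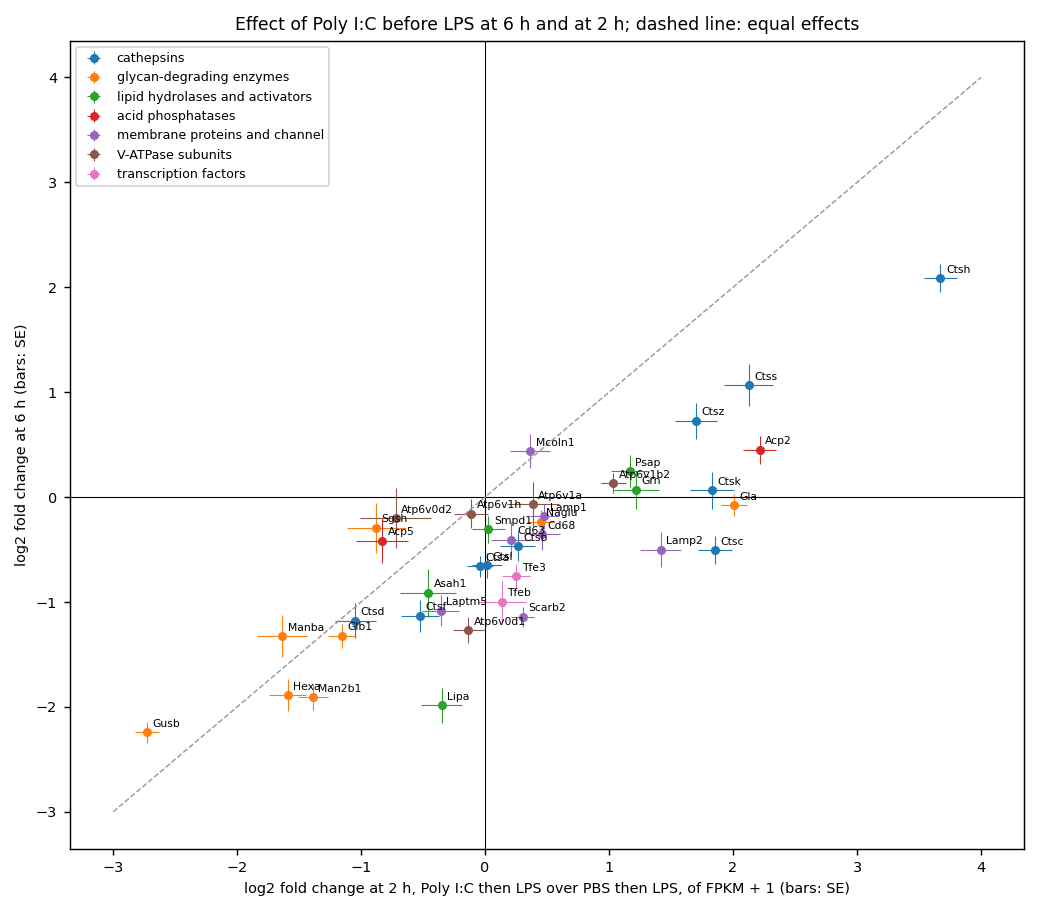
Effect of Poly I:C before LPS at 6 h (vertical axis) against that at 2 h (horizontal axis) for each member, as log2 fold change of FPKM + 1 over PBS then LPS with standard errors (2 libraries a group), coloured by role. Most points lie below the dashed line of equal effects, and 25 members passed the test of the difference with a lower value at 6 h.

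Poly I:C without LPS moved members in both directions. At 6 h after the wash, 15 members were higher and 7 lower than in the PBS-then-PBS library, against 18.4% and 16.1% of entries (34.5% in either direction). The count of 7 was 4 without the second Poly I:C-then-PBS library. At 2 h the counts were 13 and 10, against 24.9% and 22.4% of entries (47.3% in either direction). The median changes were 0.21 at 6 h and 0.08 at 2 h over the members, and 0.06 and 0.05 over all entries. Rescaled to one sum, 14 were higher and 7 lower at 6 h, and 10 higher and 15 lower at 2 h. Of the 11977 entries, 2058 were then higher and 2259 lower at 6 h, and 2000 higher and 4291 lower at 2 h. The rescaled medians over all entries were 0 at 6 h and -0.29 at 2 h. Without rescaling, Ctsh, Ctsk, Ctss, Ctsz, Gla, Psap, Grn, Acp2, Acp5 and Lamp2 were higher at both times. Ctsd, Glb1, Gusb, Hexa, Man2b1 and Atp6v0d2 were lower at both. The 6 h calls of Ctsd and Lamp2 were lost without either Poly I:C-then-PBS library of that time, and that of Man2b1 without the first. Those of Atp6v0d2 were lost at either time without the second (limma adjusted p = 0.0535 at 6 h and 0.111 at 2 h). Priming went with a lower sum of macrophage markers, as given above.

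Between 2 h and 6 h the list fell in primed cells given LPS. There 1 member was higher at 6 h than at 2 h, Acp5, and 30 were lower, against 14.7% and 25.3% of entries (40.0% in either direction), with medians of -0.66 over the members and -0.10 over all entries. As each of the 4 libraries was left out, 22 to 25 were lower. In cells given PBS then LPS, 9 were higher and 8 lower at 6 h, against 23.4% and 26% of entries (49.4% in either direction), with medians of -0.04 and -0.05. The count of 8 ranged from 4 to 13 as each of the 4 libraries was left out: it was 13 without the second library at 2 h, 4 without the first at 6 h, and 5 without either of the others. In cells given Poly I:C then PBS, 6 were higher and 4 lower at 6 h, against 12.3% and 18.0% of entries (30.4% in either direction), with medians of -0.07 and -0.02. The 6 became 3 without the second library of either time. With libraries rescaled to one sum the counts were 4 higher and 12 lower after Poly I:C then LPS, 7 higher and 18 lower after PBS then LPS, and 14 higher and 2 lower after Poly I:C then PBS. Of the 11977 entries, 4200 were then higher and 1343 lower, 2135 and 4310, and 3352 and 1428, in the same order. The rescaled medians over all entries were 0.27, -0.23 and 0.20.

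**Figure D4:**
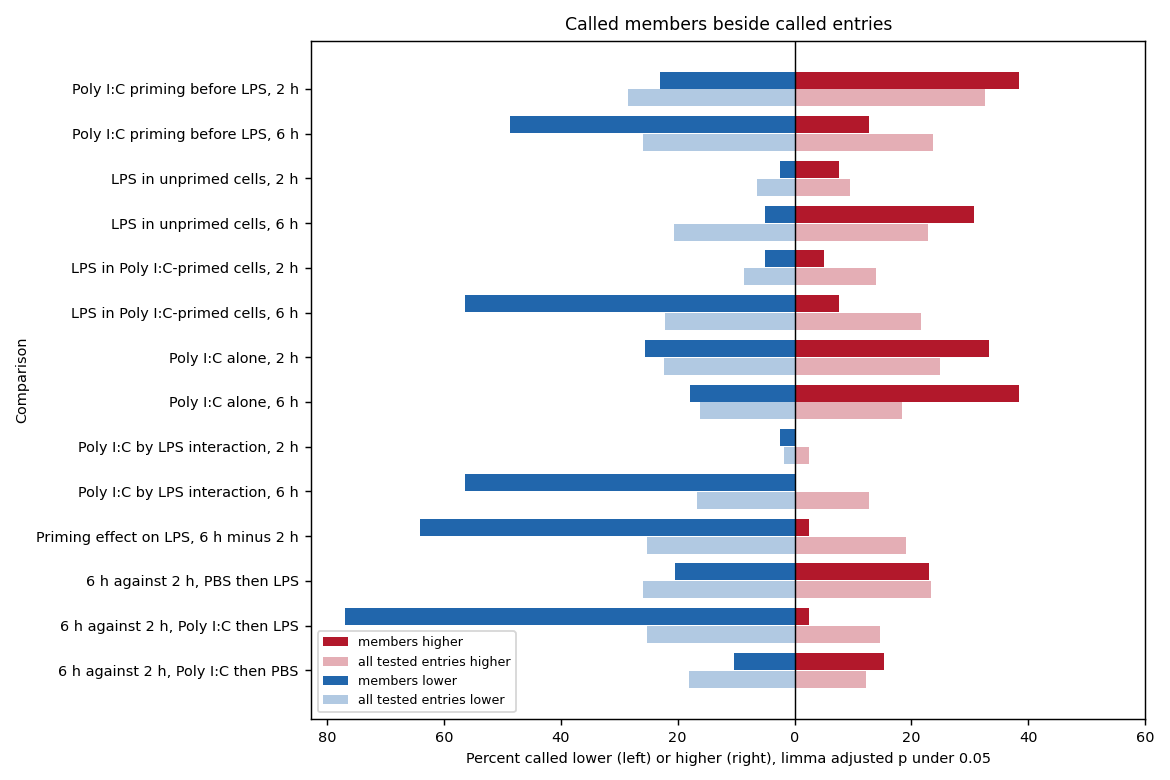
Percent of the 39 members (dark bars) and of the 11977 tested entries (pale bars) called higher (right) or lower (left) in each comparison. The dark bars stand farthest from the pale ones to the left for 6 h against 2 h after Poly I:C then LPS (76.9% of members, 25.3% of entries) and for the interaction at 6 h (56.4% of members, 16.7% of entries).

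The cathepsins split into members that were high after Poly I:C and members that were not. Ctsh, an aminopeptidase, had at 6 h 623 and 572 FPKM in Poly I:C-then-LPS cells, 493 and 468 in Poly I:C-then-PBS cells, 132 and 148 in PBS-then-LPS cells and 44.4 in PBS-then-PBS cells. After 2 h the libraries held 961 and 976 FPKM in Poly I:C-then-LPS cells, 766 and 764 in Poly I:C-then-PBS cells, 85.6 and 65.7 in PBS-then-LPS cells and 50.5 in PBS-then-PBS cells. All 8 libraries of primed cells lay above all 6 of unprimed cells, and LPS raised it within the unprimed cells at 6 h, by 1.64 ± 0.16 (limma adjusted p = 2.31e-05). Poly I:C before LPS changed it by 2.08 ± 0.13 (limma adjusted p = 1.44e-06) at 6 h and 3.67 ± 0.13 (limma adjusted p = 1.6e-08) at 2 h. Ctss, which trims the invariant chain of MHC class II, had at 6 h 3493 and 3636 FPKM in Poly I:C-then-LPS cells, 4339.8 and 3075 in Poly I:C-then-PBS cells, 1565 and 1848 in PBS-then-LPS cells and 1016 in PBS-then-PBS cells. Its levels at 2 h were 5449 and 5484 FPKM in Poly I:C-then-LPS cells, 4091 and 4647 in Poly I:C-then-PBS cells, 1416 and 1104 in PBS-then-LPS cells and 1130.1 in PBS-then-PBS cells. Primed and unprimed libraries did not overlap for Ctss, and the changes with Poly I:C before LPS were 1.07 ± 0.20 (limma adjusted p = 0.00142) at 6 h and 2.13 ± 0.20 (limma adjusted p = 8.36e-06) at 2 h. Ctsz, a carboxypeptidase, had at 6 h 1653 and 1691 FPKM in Poly I:C-then-LPS cells, 1559 and 1706 in Poly I:C-then-PBS cells, 951 and 1069 in PBS-then-LPS cells and 447 in PBS-then-PBS cells. At the earlier time it stood at 2513 and 2692 FPKM in Poly I:C-then-LPS cells, 1989 and 2037 in Poly I:C-then-PBS cells, 960.2 and 666 in PBS-then-LPS cells and 521 in PBS-then-PBS cells. Its primed libraries also lay above every unprimed one, and Poly I:C before LPS changed it by 0.73 ± 0.17 (limma adjusted p = 0.0055) at 6 h and 1.70 ± 0.17 (limma adjusted p = 1.42e-05) at 2 h.

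Ctsk, a collagen-degrading protease best known from osteoclasts, was high after Poly I:C and low once LPS had acted for 6 h. The 6 h libraries held 2.24 and 1.38 FPKM in Poly I:C-then-LPS cells, 10.3 and 10.6 in Poly I:C-then-PBS cells, 1.91 and 1.42 in PBS-then-LPS cells and 1.71 in PBS-then-PBS cells. The pair given Poly I:C then LPS overlapped the unprimed libraries and lay below both libraries given Poly I:C then PBS, with a change of -2.04 ± 0.18 (limma adjusted p = 8.6e-06). The 2 h values were 8.75 and 7.13 FPKM in Poly I:C-then-LPS cells, 10.1 and 10.3 in Poly I:C-then-PBS cells, 1.62 and 1.39 in PBS-then-LPS cells and 1.13 in PBS-then-PBS cells, with all primed libraries above the unprimed ones. The LPS change in primed cells at 2 h, -0.33 ± 0.18, did not pass (limma adjusted p = 0.22). Of the 6 other osteoclast markers, at most 2 reached 1 FPKM in any library, and their sum was 5.95 to 14.7 FPKM.

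Ctsc activates serine proteases of granules by removing dipeptides. At 6 h it stood at 1130.0 and 1060.4 FPKM in Poly I:C-then-LPS cells, 213 and 268 in Poly I:C-then-PBS cells, 1504 and 1605 in PBS-then-LPS cells and 189.7 in PBS-then-PBS cells, and at 2 h 852 and 905 FPKM in Poly I:C-then-LPS cells, 363 and 359 in Poly I:C-then-PBS cells, 225 and 261 in PBS-then-LPS cells and 147 in PBS-then-PBS cells. Every LPS-treated library at 6 h lay above every library without LPS. LPS raised it by 2.19 ± 0.14 (limma adjusted p = 7.64e-07) in primed and 3.03 ± 0.17 (limma adjusted p = 3.11e-07) in unprimed cells at 6 h, and by 1.28 ± 0.14 (limma adjusted p = 9.24e-05) in primed and 0.72 ± 0.17 (limma adjusted p = 0.0147) in unprimed cells at 2 h. Ctsd, with its merged entry, had at 6 h 1877 and 2012 FPKM in Poly I:C-then-LPS cells, 3483 and 3714 in Poly I:C-then-PBS cells, 4233 and 4563 in PBS-then-LPS cells and 5702 in PBS-then-PBS cells. After 2 h the libraries held 2869 and 3003 FPKM in Poly I:C-then-LPS cells, 2842 and 2898 in Poly I:C-then-PBS cells, 6936 and 5302 in PBS-then-LPS cells and 6169.9 in PBS-then-PBS cells. The primed libraries lay below all unprimed ones at both times, and LPS changed it in primed cells at 6 h by -0.89 ± 0.17 (limma adjusted p = 0.00156). Ctsb, an abundant endopeptidase, had at 6 h 2157 and 2086 FPKM in Poly I:C-then-LPS cells, 2755 and 2639.7 in Poly I:C-then-PBS cells, 2747 and 3141 in PBS-then-LPS cells and 2858 in PBS-then-PBS cells. Its levels at 2 h were 3753 and 3697 FPKM in Poly I:C-then-LPS cells, 3136 and 3064 in Poly I:C-then-PBS cells, 3267 and 2949.9 in PBS-then-LPS cells and 2993 in PBS-then-PBS cells. The pair given Poly I:C then LPS was the lowest at 6 h and the highest at 2 h, and the change at 6 h against 2 h in that pair was -0.81 ± 0.14 (limma adjusted p = 0.00146). Ctsl, a related endopeptidase, had at 6 h 366 and 385 FPKM in Poly I:C-then-LPS cells, 701 and 655 in Poly I:C-then-PBS cells, 577 and 601 in PBS-then-LPS cells and 608 in PBS-then-PBS cells, and at 2 h 588 and 565 FPKM in Poly I:C-then-LPS cells, 505 and 511 in Poly I:C-then-PBS cells, 624 and 521 in PBS-then-LPS cells and 452 in PBS-then-PBS cells. Its lowest libraries were those given Poly I:C then LPS for 6 h, with a change of -0.85 ± 0.12 (limma adjusted p = 0.000227) against Poly I:C then PBS. Ctsa, a carboxypeptidase that also stabilises other lysosomal enzymes, ranged from 363 to 629 FPKM and Ctsf from 1.55 to 6.71 FPKM, and both had their lowest libraries in the same pair.

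With LPS, most glycan-degrading enzymes stood lower in primed than in unprimed cells. At 6 h, 5 of the 8 were lower and 0 higher after Poly I:C then LPS than after PBS then LPS, with a median of -1.32. At 2 h, 6 were lower and 2, Gla and Naglu, higher, with a median of -1.27. Of all entries, 25.9% were lower and 23.7% higher at 6 h, and 28.5% and 32.6% at 2 h. Rescaled to one sum, 5 of the 8 enzymes were lower and 0 higher at 6 h, and 6 lower and 1 higher at 2 h. Of the 11977 entries, 2445 were then lower and 3523 higher at 6 h, and 5407 and 2362 at 2 h. After Poly I:C alone, 4 of the 8 were lower and 2 higher at 6 h, and 6 lower and 1 higher at 2 h. There 16.1% of entries were lower and 18.4% higher at 6 h, and 22.4% and 24.9% at 2 h. Gusb, which removes glucuronic acid from glycosaminoglycans, had at 6 h 32.2 and 34.9 FPKM in Poly I:C-then-LPS cells, 84.4 and 81.5 in Poly I:C-then-PBS cells, 161 and 164 in PBS-then-LPS cells and 191 in PBS-then-PBS cells. At the earlier time it stood at 36.4 and 33.0 FPKM in Poly I:C-then-LPS cells, 50.3 and 51.0 in Poly I:C-then-PBS cells, 242 and 227 in PBS-then-LPS cells and 226 in PBS-then-PBS cells. Primed and unprimed libraries were apart at both times, with changes before LPS of -2.24 ± 0.10 (limma adjusted p = 2.01e-07) at 6 h and -2.73 ± 0.10 (limma adjusted p = 1.6e-08) at 2 h. In primed cells LPS changed it by a further -1.28 ± 0.10 (limma adjusted p = 3.33e-06) at 6 h. Hexa, the alpha chain of the enzyme that degrades GM2 ganglioside, had at 6 h 136 and 156 FPKM in Poly I:C-then-LPS cells, 226 and 237 in Poly I:C-then-PBS cells, 498 and 591 in PBS-then-LPS cells and 580.1 in PBS-then-PBS cells. The 2 h values were 223 and 238 FPKM in Poly I:C-then-LPS cells, 198 and 192 in Poly I:C-then-PBS cells, 804 and 604 in PBS-then-LPS cells and 615 in PBS-then-PBS cells. The highest primed library stood below the lowest unprimed one, and the changes before LPS were -1.89 ± 0.15 (limma adjusted p = 5.8e-06) at 6 h and -1.59 ± 0.15 (limma adjusted p = 9.32e-06) at 2 h.

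Man2b1 and Manba remove mannose from glycoprotein glycans. Man2b1 had at 6 h 34.1 and 35.1 FPKM in Poly I:C-then-LPS cells, 81.0 and 96.3 in Poly I:C-then-PBS cells, 122 and 143 in PBS-then-LPS cells and 128 in PBS-then-PBS cells. After 2 h the libraries held 50.5 and 51.1 FPKM in Poly I:C-then-LPS cells, 54.6 and 52.7 in Poly I:C-then-PBS cells, 128 and 142 in PBS-then-LPS cells and 146 in PBS-then-PBS cells. No primed library reached an unprimed one, and the lowest values were those of Poly I:C then LPS at 6 h, with a change of -1.33 ± 0.12 (limma adjusted p = 1.05e-05) against Poly I:C then PBS. Manba had at 6 h 4.01 and 3.07 FPKM in Poly I:C-then-LPS cells, 10.9 and 11.2 in Poly I:C-then-PBS cells, 9.28 and 11.5 in PBS-then-LPS cells and 16.9 in PBS-then-PBS cells, and at 2 h 5.37 and 3.22 FPKM in Poly I:C-then-LPS cells, 5.18 and 5.06 in Poly I:C-then-PBS cells, 14.1 and 16.3 in PBS-then-LPS cells and 16.6 in PBS-then-PBS cells. Here the groups Poly I:C then PBS and PBS then LPS overlapped at 6 h, and LPS changed it in primed cells by -1.41 ± 0.20 (limma adjusted p = 0.000245). Glb1, a galactosidase with a merged entry, ranged from 21.2 to 35.1 FPKM in primed libraries and from 51.6 to 65.5 FPKM in unprimed ones, again without overlap.

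Gla, one of the E-box carriers shown above, went the other way. Its levels at 6 h were 69.0 and 59.4 FPKM in Poly I:C-then-LPS cells, 121 and 114 in Poly I:C-then-PBS cells, 66.3 and 68.8 in PBS-then-LPS cells and 43.3 in PBS-then-PBS cells. Its levels at 2 h were 205 and 190.3 FPKM in Poly I:C-then-LPS cells, 181 and 178 in Poly I:C-then-PBS cells, 49.3 and 47.6 in PBS-then-LPS cells and 51.6 in PBS-then-PBS cells. All primed libraries at 2 h lay above all unprimed ones, whereas at 6 h the pair given Poly I:C then LPS overlapped the pair given PBS then LPS. Poly I:C then LPS at 6 h against 2 h changed it by -1.61 ± 0.10 (limma adjusted p = 5.64e-06), and PBS then LPS by 0.47 ± 0.10 (limma adjusted p = 0.00396). Sgsh, a heparan sulfatase, had at 6 h 1.26 and 1.39 FPKM in Poly I:C-then-LPS cells, 17.3 and 25.7 in Poly I:C-then-PBS cells, 1.34 and 2.46 in PBS-then-LPS cells and 15.8 in PBS-then-PBS cells, and at 2 h 4.90 and 6.11 FPKM in Poly I:C-then-LPS cells, 10.9 and 8.04 in Poly I:C-then-PBS cells, 10.3 and 11.6 in PBS-then-LPS cells and 21.4 in PBS-then-PBS cells. The 4 libraries given LPS for 6 h were the lowest of all, whatever the first stimulus. LPS at 6 h changed it by -3.25 ± 0.24 (limma adjusted p = 2.33e-06) in primed and -2.56 ± 0.29 (limma adjusted p = 5.67e-05) in unprimed cells, values that are low enough for the added 1 FPKM to understate the change. Naglu, which acts on heparan sulfate as well, ranged from 35.6 to 87.6 FPKM, with its lowest pair after Poly I:C then LPS for 6 h and its highest after Poly I:C then PBS for 6 h.

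Among the lipid hydrolases and activators, Lipa had the largest change with LPS in primed cells. The 6 h libraries held 54.4 and 51.5 FPKM in Poly I:C-then-LPS cells, 251 and 245 in Poly I:C-then-PBS cells, 218 and 208 in PBS-then-LPS cells and 298 in PBS-then-PBS cells. At the earlier time it stood at 219.7 and 212 FPKM in Poly I:C-then-LPS cells, 208 and 202 in Poly I:C-then-PBS cells, 223 and 339.6 in PBS-then-LPS cells and 327 in PBS-then-PBS cells. Only the pair given Poly I:C then LPS for 6 h stood apart, below every other library. The change with LPS in primed cells at 6 h was -2.21 ± 0.16 (limma adjusted p = 2.61e-06), and the interaction was -1.72 ± 0.26 (limma adjusted p = 0.000818). At 2 h the LPS change in primed cells was 0.07 ± 0.16 (limma adjusted p = 0.794). Grn, the precursor of granulins and a regulator of lysosomal enzymes, had at 6 h 1893 and 1886 FPKM in Poly I:C-then-LPS cells, 2652 and 2643 in Poly I:C-then-PBS cells, 1634 and 1981 in PBS-then-LPS cells and 1132 in PBS-then-PBS cells. The 2 h values were 3523 and 3648 FPKM in Poly I:C-then-LPS cells, 3109 and 3181 in Poly I:C-then-PBS cells, 1851 and 1281 in PBS-then-LPS cells and 1447 in PBS-then-PBS cells. The primed libraries without LPS were above all unprimed ones at both times, and at 6 h the pair given Poly I:C then LPS overlapped the pair given PBS then LPS. Poly I:C alone changed it by 1.23 ± 0.22 (limma adjusted p = 0.00202) at 6 h and 1.12 ± 0.22 (limma adjusted p = 0.00224) at 2 h. Psap, which is cut into the saposins that help enzymes reach lipids, ranged from 2494 to 4675 FPKM in primed and from 1896 to 2289 FPKM in unprimed libraries. Its primed level fell with LPS at 6 h by 0.68 on the log2 scale. The ceramidase Asah1 ranged from 64.6 to 181 FPKM and the sphingomyelinase Smpd1 from 7.96 to 15.04 FPKM, both lowest after Poly I:C then LPS for 6 h.

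Both acid phosphatases were higher after Poly I:C alone than in the PBS-then-PBS libraries. Acp5, the tartrate-resistant phosphatase, had at 6 h 57.7 and 51.5 FPKM in Poly I:C-then-LPS cells, 10.5 and 7.10 in Poly I:C-then-PBS cells, 68.1 and 78.2 in PBS-then-LPS cells and 1.59 in PBS-then-PBS cells. After 2 h the libraries held 26.2 and 23.0 FPKM in Poly I:C-then-LPS cells, 11.5 and 11.4 in Poly I:C-then-PBS cells, 55.0 and 35.9 in PBS-then-LPS cells and 1.80 in PBS-then-PBS cells. Every library that had received a stimulus lay above both PBS-then-PBS libraries, and LPS after PBS gave the highest values of each time. LPS changed it by 2.52 ± 0.21 (limma adjusted p = 6.06e-06) in primed and 4.84 ± 0.26 (limma adjusted p = 2.7e-07) in unprimed cells at 6 h, and by 1.04 ± 0.21 (limma adjusted p = 0.00566) in primed and 4.02 ± 0.26 (limma adjusted p = 4.93e-06) in unprimed cells at 2 h. Poly I:C alone changed it by 1.90 ± 0.26 (limma adjusted p = 0.000321) at 6 h and 2.15 ± 0.26 (limma adjusted p = 8.35e-05) at 2 h. Acp2, the membrane-anchored lysosomal phosphatase, had at 6 h 173 and 162 FPKM in Poly I:C-then-LPS cells, 133 and 134 in Poly I:C-then-PBS cells, 130.1 and 115 in PBS-then-LPS cells and 53.1 in PBS-then-PBS cells, and at 2 h 256 and 227 FPKM in Poly I:C-then-LPS cells, 232 and 202 in Poly I:C-then-PBS cells, 46.1 and 56.6 in PBS-then-LPS cells and 56.7 in PBS-then-PBS cells. At 2 h the primed libraries lay above all unprimed ones with or without LPS, and Poly I:C before LPS changed it by 2.21 ± 0.13 (limma adjusted p = 3.39e-07). In unprimed cells LPS raised Acp2 at 6 h by 1.19 ± 0.16 (limma adjusted p = 0.000199).

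Of the membrane proteins, Lamp2 followed different courses with and without priming. At 6 h it stood at 298 and 305 FPKM in Poly I:C-then-LPS cells, 296 and 269 in Poly I:C-then-PBS cells, 417 and 437 in PBS-then-LPS cells and 187 in PBS-then-PBS cells. Its levels at 2 h were 471 and 460.2 FPKM in Poly I:C-then-LPS cells, 371 and 402 in Poly I:C-then-PBS cells, 141 and 213 in PBS-then-LPS cells and 185 in PBS-then-PBS cells. PBS then LPS gave the highest pair at 6 h, whereas at 2 h that group overlapped the PBS-then-PBS library and lay below all primed libraries. LPS raised it in unprimed cells at 6 h by 1.19 ± 0.20 (limma adjusted p = 0.000946), and Poly I:C before LPS raised it at 2 h by 1.42 ± 0.17 (limma adjusted p = 4.4e-05). Lamp1, whose promoter stretch above holds the most E-boxes of those shown, moved little. Its levels at 6 h were 719.8 and 751 FPKM in Poly I:C-then-LPS cells, 917 and 833 in Poly I:C-then-PBS cells, 787 and 886 in PBS-then-LPS cells and 755 in PBS-then-PBS cells, and at 2 h 1154 and 1165 FPKM in Poly I:C-then-LPS cells, 995 and 1009 in Poly I:C-then-PBS cells, 850.1 and 816 in PBS-then-LPS cells and 753 in PBS-then-PBS cells. The pair given Poly I:C then LPS was the lowest at 6 h and the highest at 2 h. Poly I:C before LPS changed it by -0.18 ± 0.12 at 6 h (limma adjusted p = 0.223) and 0.48 ± 0.12 (limma adjusted p = 0.00526) at 2 h, a direction that turned to -0.07 when libraries were rescaled to one sum.

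Cd63, a tetraspanin of late endosomes, had at 6 h 613 and 623 FPKM in Poly I:C-then-LPS cells, 815 and 812 in Poly I:C-then-PBS cells, 748 and 896 in PBS-then-LPS cells and 702 in PBS-then-PBS cells. At the earlier time it stood at 1034 and 1031 FPKM in Poly I:C-then-LPS cells, 829.8 and 863 in Poly I:C-then-PBS cells, 1059 and 749 in PBS-then-LPS cells and 714 in PBS-then-PBS cells. Its called comparison was 6 h against 2 h after Poly I:C then LPS, at -0.74 ± 0.16 (limma adjusted p = 0.00529). Mcoln1, a calcium channel of the lysosomal membrane with a merged entry, had at 6 h 33.5 and 26.9 FPKM in Poly I:C-then-LPS cells, 54.7 and 45.8 in Poly I:C-then-PBS cells, 20.1 and 23.7 in PBS-then-LPS cells and 26.5 in PBS-then-PBS cells. The 2 h values were 37.4 and 46.5 FPKM in Poly I:C-then-LPS cells, 47.8 and 50.9 in Poly I:C-then-PBS cells, 34.6 and 30.0 in PBS-then-LPS cells and 38.2 in PBS-then-PBS cells. The pair given Poly I:C then PBS was the highest at each time, and LPS changed it in primed cells at 6 h by -0.72 ± 0.16 (limma adjusted p = 0.00431). Poly I:C alone raised it at 6 h by 0.89 ± 0.20 (limma adjusted p = 0.00582). Scarb2 ranged from 33.0 to 33.2 FPKM after Poly I:C then LPS for 6 h, below the range of 41.8 to 75.8 FPKM over all other libraries. Laptm5, a membrane protein of blood cells, had 232 to 258 FPKM in that pair against 421 to 741 FPKM elsewhere, and Cd68, a macrophage glycoprotein, 946 to 1027 against 1177 to 2180.0 FPKM.

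The 5 pump subunits did not move as one. Atp6v0d1, which joins the membrane part of the pump to its cytosolic part, had at 6 h 49.5 and 53.1 FPKM in Poly I:C-then-LPS cells, 97.8 and 92.7 in Poly I:C-then-PBS cells, 118 and 133 in PBS-then-LPS cells and 106 in PBS-then-PBS cells. After 2 h the libraries held 121 and 124 FPKM in Poly I:C-then-LPS cells, 115 and 115 in Poly I:C-then-PBS cells, 152 and 119.6 in PBS-then-LPS cells and 123 in PBS-then-PBS cells. Only the pair given Poly I:C then LPS for 6 h stood apart, below the rest, with a change of -0.88 ± 0.13 (limma adjusted p = 0.00026). Atp6v0d2, its paralogue in macrophages and osteoclasts, had at 6 h 3.90 and 3.42 FPKM in Poly I:C-then-LPS cells, 10.4 and 5.81 in Poly I:C-then-PBS cells, 4.25 and 4.45 in PBS-then-LPS cells and 22.8 in PBS-then-PBS cells, and at 2 h 10.3 and 5.99 FPKM in Poly I:C-then-LPS cells, 11.1 and 8.19 in Poly I:C-then-PBS cells, 11.5 and 16.1 in PBS-then-LPS cells and 21.9 in PBS-then-PBS cells. The PBS-then-PBS libraries were the highest of each time, and LPS changed it in unprimed cells at 6 h by -2.16 ± 0.35 (limma adjusted p = 0.000671). Its replicates after Poly I:C then PBS at 6 h differed by 0.75 log2 units, and its call after LPS in primed cells at 6 h was lost without the first of them or without either Poly I:C-then-LPS library, as given above. Atp6v1a and Atp6v1b2 form the ring that splits ATP. Atp6v1a had at 6 h 90.8 and 78.4 FPKM in Poly I:C-then-LPS cells, 125 and 103 in Poly I:C-then-PBS cells, 93.2 and 83.8 in PBS-then-LPS cells and 119.8 in PBS-then-PBS cells, and at 2 h 210.0 and 188 FPKM in Poly I:C-then-LPS cells, 145 and 133 in Poly I:C-then-PBS cells, 117 and 197 in PBS-then-LPS cells and 156 in PBS-then-PBS cells, with replicates after PBS then LPS at 2 h 0.75 log2 units apart. Its change at 6 h against 2 h was -1.23 ± 0.21 (limma adjusted p = 0.00135) after Poly I:C then LPS. Atp6v1b2 had at 6 h 251 and 234 FPKM in Poly I:C-then-LPS cells, 179 and 166 in Poly I:C-then-PBS cells, 218 and 224 in PBS-then-LPS cells and 149 in PBS-then-PBS cells. Its levels at 2 h were 228 and 217 FPKM in Poly I:C-then-LPS cells, 189.6 and 183 in Poly I:C-then-PBS cells, 110.2 and 106 in PBS-then-LPS cells and 114 in PBS-then-PBS cells. It rose with LPS at 6 h by 0.49 ± 0.10 (limma adjusted p = 0.00236) in primed and 0.57 ± 0.12 (limma adjusted p = 0.00308) in unprimed cells, a rise in unprimed cells that turned to -0.06 when libraries were rescaled to one sum. Atp6v1h, a regulatory subunit, ranged from 37.1 to 77.5 FPKM.

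The transcription factor Tfeb was lowered by LPS in primed cells at both times. The 6 h libraries held 3.35 and 3.92 FPKM in Poly I:C-then-LPS cells, 21.3 and 23.6 in Poly I:C-then-PBS cells, 7.59 and 8.93 in PBS-then-LPS cells and 10.6 in PBS-then-PBS cells. At the earlier time it stood at 8.55 and 6.50 FPKM in Poly I:C-then-LPS cells, 19.5 and 18.9 in Poly I:C-then-PBS cells, 8.31 and 5.37 in PBS-then-LPS cells and 22.4 in PBS-then-PBS cells. Within each time the LPS-treated libraries lay below the libraries without LPS. In primed cells LPS changed it by -2.34 ± 0.19 (limma adjusted p = 5.33e-06) at 6 h and -1.25 ± 0.19 (limma adjusted p = 0.00105) at 2 h. In unprimed cells the change was -0.33 ± 0.24 at 6 h (limma adjusted p = 0.301) and -1.60 ± 0.24 (limma adjusted p = 0.00112) at 2 h. The PBS-then-PBS library had less Tfeb at 6 h than at 2 h, and each is a single library. Tfe3 ranged from 34.2 to 60.4 FPKM. It was highest after PBS then LPS for 6 h, where it had risen by 0.63 ± 0.14 (limma adjusted p = 0.00403), and lower in primed cells given LPS than in unprimed cells given LPS at 6 h, with a change of -0.75 ± 0.11 (limma adjusted p = 0.000368).

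**Figure D5:**
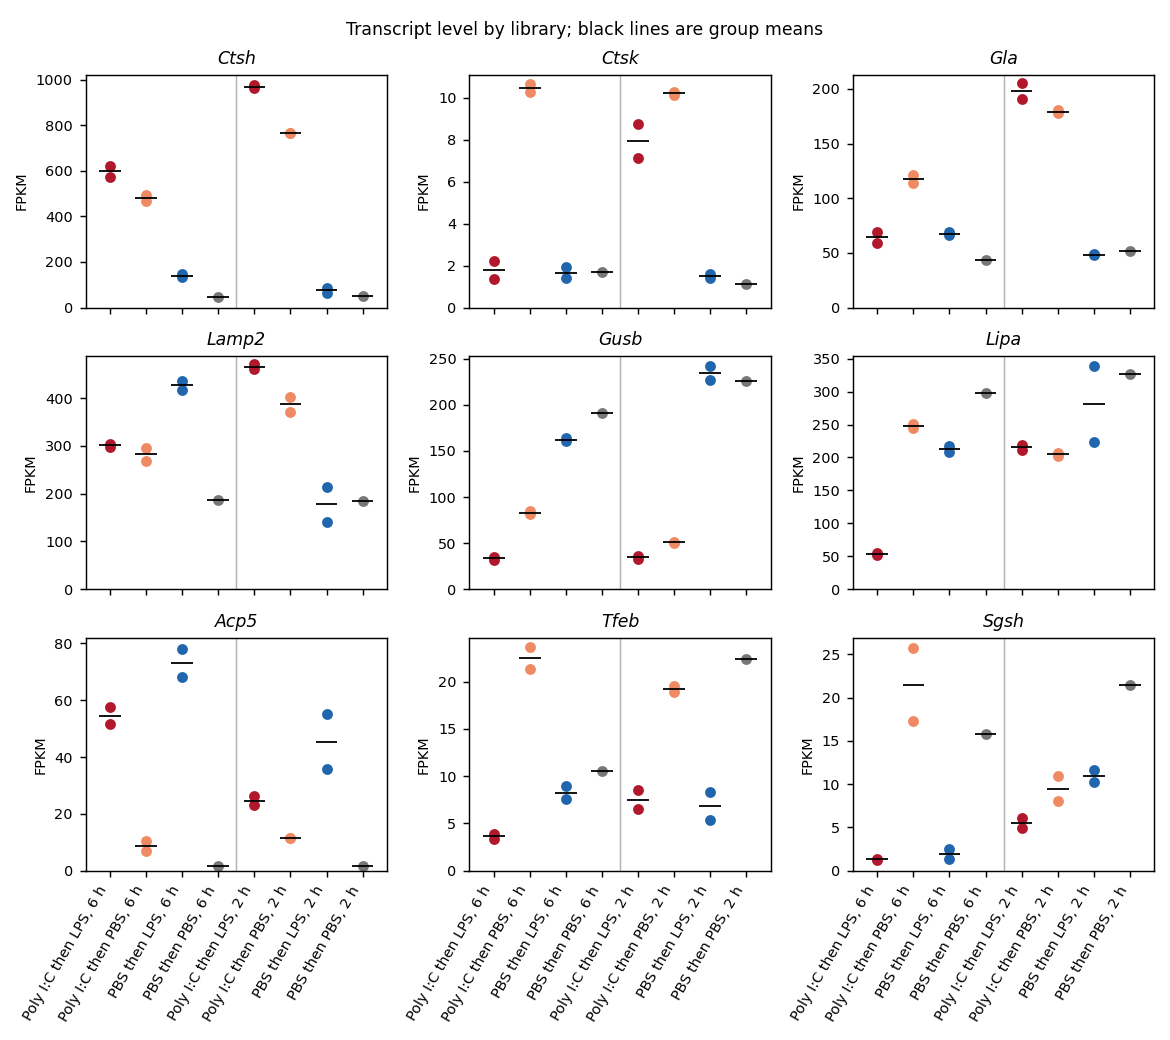
FPKM of 9 members in each library (points, 2 a group and 1 for PBS then PBS) by group, 6 h left of 2 h, with group means as black lines and linear axes from 0. Lipa and Tfeb are lowest in the pair given Poly I:C then LPS for 6 h, Sgsh is low in all 4 libraries given LPS for 6 h, and Ctsh is high in all 8 primed libraries.

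Set beside the promoter letters, members with and without TCACGTG both fell after LPS in primed cells at 6 h. Of the 10 with a match, 8 were lower and 0 higher, with a median of -0.79. Of the 23 with a window but no match, 13 were lower and 2 higher, with a median of -0.67. Among all entries, 22.2% were lower and 21.7% higher in that comparison. At 6 h against 2 h after Poly I:C then LPS, 9 of the 10 and 17 of the 23 were lower, against 25.3% of all entries. The groups differed more at 6 h against 2 h after PBS then LPS. There 5 of the 10 were lower and 1 higher, with a median of -0.25. Among the 23, 1 was lower and 6 higher, with a median of 0.05, against 26% and 23.4% of all entries. The 5 lower members with a match were Ctsd, Naglu and Mcoln1, which have merged entries, and Sgsh and Atp6v1a. Without the first PBS-then-LPS library at 2 h, Ctsd (-0.271), Naglu (-0.286) and Mcoln1 (-0.437) no longer passed. Atp6v1a (-0.70) no longer passed without the second at 6 h. Atp6v0d2 and Atp6v1h were lower as well but had no promoter window, so they stand in neither group. Of the 10 with a match, 1 was higher and 1 lower after LPS in unprimed cells at 6 h. Without a match, 9 of the 23 were higher and 0 lower, against 22.9% and 20.6% of all entries. All 4 members with merged entries are among the 10. Counts by match were not taken with libraries rescaled to one sum. Over the whole list, rescaling gave 4 higher and 12 lower at 6 h against 2 h after Poly I:C then LPS. It gave 7 higher and 18 lower after PBS then LPS, and 5 and 23 after LPS in unprimed cells at 6 h. These counts describe the list and were not tested.

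Other lysosomal genes were counted from a list of 65 hydrolases, cofactors, membrane proteins and pump subunits outside the 39, of which 60 were tested. Like the members, this list and the further lists below were chosen with earlier results of these data known. After LPS in primed cells at 6 h, 38 of the 60 were lower and 8 higher, with a median of -0.59, against 22.2% of all entries lower and 21.7% higher, and after rescaling to one sum 46 were lower and 4 higher. In unprimed cells 11 were lower and 25 higher, with a median of 0.21, against 20.6% of entries lower and 22.9% higher, and after rescaling to one sum 29 were lower and 13 higher. The interaction at 6 h was negative for 32 and positive for 2, against 16.7% and 12.7% of entries, and after rescaling for 22 and 3. Of the 27 hydrolases and cofactors tested, 21 were lower and 1 higher in primed cells, and of the 21 membrane proteins 12 were lower and 5 higher. Among hydrolases, Galc, which cleaves galactosylceramide, changed by -2.04 ± 0.15 (limma adjusted p = 2.88e-06) in primed cells at 6 h, and Dnase2a, which cuts DNA of engulfed cells, by -1.40 ± 0.14 (limma adjusted p = 2.48e-05). Among membrane proteins, the nucleoside transporter Slc29a3 changed by -2.22 ± 0.18 (limma adjusted p = 5.51e-06) in primed and 1.78 ± 0.23 (limma adjusted p = 0.00012) in unprimed cells, and the ion channel Tpcn1 by -2.64 ± 0.20 (limma adjusted p = 2.68e-06) in primed cells. The peptide transporter Slc15a3 rose by 3.62 ± 0.14 (limma adjusted p = 2.64e-08) in unprimed cells. Of 12 further pump subunits, 5 were lower and 2 higher in primed cells, and Atp6v0b rose by 0.91 ± 0.15 (limma adjusted p = 0.000544).

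Further lists touched the control and sorting of lysosomal enzymes. Of 13 tested genes of MiT factors and nutrient sensing, 7 were lower and 2 higher after LPS in primed cells at 6 h, against 22.2% and 21.7% of all entries. Tfec, a relative of Tfeb, rose there by 1.13 ± 0.14 (limma adjusted p = 8.21e-05), and Mitf, another relative, by 1.16 ± 0.15 (limma adjusted p = 0.000128), whereas Rragd, a GTPase of the nutrient-sensing complex, fell by 2.13 on the log2 scale. Of 12 tested genes that sort lysosomal enzymes, 4 were lower and 1 higher in the same comparison. Set against PBS then LPS, 9 were lower and 0 higher at 6 h and 6 lower and 3 higher at 2 h, against 25.9% and 23.7% of entries at 6 h and 28.5% and 32.6% at 2 h. Of 3 tested cystatins, which inhibit cathepsins, Poly I:C alone raised 2 and lowered 0 at 6 h, against 18.4% and 16.1% of entries, and Cst7 rose by 5.88 ± 0.27 (limma adjusted p = 2.1e-07) at 6 h and 6.33 ± 0.27 (limma adjusted p = 6.75e-08) at 2 h. Of 12 tested autophagy genes, 3 were lower and 4 higher after LPS in primed cells at 6 h, against the 22.2% and 21.7% of entries given above.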

How the data were processed

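Per the labels, polyadenylated RNA of mouse bone marrow-derived macrophages was sequenced as paired 76 bp reads from stranded libraries on an Illumina NextSeq. Per the submitters' processing notes, the authors used TopHat2, Cufflinks and Cuffnorm and name mm9, without versions or options. The deposited values are FPKM normalised by the authors across the 14 libraries. The coordinates are those of GRCm38: 39 of 39 members overlap the GRCm38 gene of that name. FPKM hold no read counts, so depth is unknown and no count model was used. Every column of the table was used, and 0 were left out.

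Values were analysed as log2(FPKM + 1), a scale that understates changes of low genes, for entries that reached 1 FPKM in 2 or more libraries. limma 3.58.1 in R 4.3.3 was fitted across all 11977 entries with 1 mean for each of the 8 groups, an intensity trend and 6 residual degrees of freedom. Two-sided p-values were adjusted over all entries by the Benjamini-Hochberg method, with a threshold of 0.05, in each of 14 comparisons, several of which share groups. Tables and figures were made with Python 3.11.15, numpy 2.4.6, pandas 2.3.3 and matplotlib 3.10.9. The fit was tested on simulated data.

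The members and the gene lists were chosen with earlier results of these data known. Per-library values are given for up to 4 called members with the largest change in each direction of each comparison, among those at 5 FPKM or more in a group, and for 16 members fixed by role. The other members are given by range, and genes of other lists are named from the 4 with the largest called change. Same-numbered replicates did not deviate together (r = -0.19 to 0.0778 over 15 pairs of groups), so numbers were not treated as pairs. The alternatives changed the pseudocount (to 0.1), the filter (none), the scaling (median of ratios, or one FPKM sum per library), the intensity trend (none), the libraries fitted (each time by itself, or without 1 library), the control (PBS-then-PBS libraries of both times as 1 group) and the design (a replicate block). Leaving out the merged entries was added after seeing the data. Promoters are RefSeq windows of GRCm38.p6.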

Additional observations from a re-analysis of the deposited data

Results flagged for a closer look

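The priming effect before LPS ran in opposite directions at 6 h and 2 h for 3 members, with a difference of -2.36 for Ctsc, -1.92 for Lamp2 and -1.44 for Scarb2 (log2, 6 h minus 2 h). For Scarb2 the 2 h value turned to -0.232, the direction seen at 6 h, when libraries were rescaled to one sum. The 6 h call of Lamp2 was lost without any 1 of the 4 libraries compared (limma adjusted p up to 0.121), that of Ctsc without the second Poly I:C-then-LPS or the second PBS-then-LPS library (limma adjusted p = 0.0705 and 0.0654), and the 2 h call of Scarb2 without the first Poly I:C-then-LPS library of that time (limma adjusted p = 0.105). LPS at 6 h changed Gla and Scarb2 in opposite directions in primed and unprimed cells, with interactions of -1.50 and -1.70. By the contrast of times, the change at 6 h against 2 h differed in direction between primed and unprimed LPS-treated cells for Ctsh (-1.59), Gla (-2.08), Acp2 (-1.76), Lamp2 (-1.92) and Scarb2 (-1.44). The fall of Lamp2 in primed cells no longer passed whichever 1 of the 4 libraries was left out, with changes of -0.61 to -0.644. That of Acp2 no longer passed without the first Poly I:C-then-LPS library at 2 h (-0.436) or the second at 6 h (-0.475). Over the list, the interaction of Poly I:C and LPS passed the limma test of the difference for 22 members at 6 h and 1 at 2 h, all negative. The test of the priming effect between the times passed for 25 negative members and 1 positive member.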

How the results depend on the processing

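Of 546 pairs of a member and a comparison, 247 were called, and 155 of those kept their call under every setting that could be run for them. The smaller pseudocount lost 0 calls, leaving out the filter 19, the other scaling by median of ratios 4, dropping the intensity trend 6 and fitting each time by itself 7. With a replicate block, for numbers that do not pair the samples, 155 calls were kept and 6 lost. One control group of both PBS-then-PBS libraries kept 83 and lost 3. Of 28 counts of members, 8 were within 1.5 times of the reported value in every setting.

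Scaling libraries to one sum kept 181 calls, lost 54 and reversed 12, and the cause was not tested. Its counts outside 1.5 times were 20 lower for Poly I:C before LPS at 2 h, 1 higher and 15 lower for LPS in unprimed cells at 2 h, 5 and 23 for LPS in unprimed cells at 6 h, 1 and 25 for LPS in primed cells at 2 h, 1 positive for the interaction at 6 h, 8 and 9 for the priming effect at 6 h minus 2 h, 18 lower at 6 h against 2 h after PBS then LPS, 4 and 12 after Poly I:C then LPS, and 14 and 2 after Poly I:C then PBS. The reversed log2 values were -0.0892 for Naglu, -0.0685 for Lamp1, -0.232 for Scarb2 and -0.0851 for Cd68 with Poly I:C before LPS at 2 h, and -0.0608 for Atp6v1b2 with LPS in unprimed cells at 6 h. For the priming effect at 6 h minus 2 h they were 0.103 for Ctsa, 0.0578 for Ctsl, 0.193 for Man2b1, 0.0277 for Naglu and 0.0614 for Lamp1. At 6 h against 2 h after Poly I:C then LPS they were 0.0193 for Mcoln1 and 0.0411 for Atp6v1h.

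Without the filter 2 members had a lower interaction at 2 h. Fitting each time by itself gave 1 member higher with LPS in unprimed cells at 2 h, 4 lower at 6 h, and 5 higher with LPS in primed cells at 6 h. The pooled control gave 5 higher with LPS in unprimed cells at 2 h and 10 lower at 6 h, and interactions lower for 2 at 2 h and higher for 1 at 6 h. Without merged entries, 5 were lower at 6 h against 2 h after PBS then LPS.

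Leaving out 1 library at a time gave, for LPS in unprimed cells at 2 h, 2 to 7 higher and 1 to 4 lower. The interaction had 0 to 4 higher and 1 to 2 lower at 2 h, and 0 to 1 higher at 6 h. Poly I:C before LPS at 6 h had 3 to 5 higher, the priming effect at 6 h minus 2 h had 0 to 2 higher, and Poly I:C alone at 6 h had 4 to 6 lower. For 6 h against 2 h, 4 to 13 were lower after PBS then LPS and 3 to 4 higher after Poly I:C then PBS. FPKM give no depth, so no limit of detection can be set for low members such as Ctsf, Ctsk and Sgsh, and 2 libraries a group limit the precision of every value.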
